A study of Homo sapiens with 6 samples.

Results

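The genes described are 10 human genes of Polycomb repressive complex 2 (PRC2) and of DNA methylation: EZH1, EZH2, EED, SUZ12 and JARID2 for the complex, and DNMT1, DNMT3A, DNMT3B, UHRF1 and TET3 for methylation. They were found by symbol in the authors' deposited table and joined by gene identifier to the counts, and all 10 of 10 were present among 63677 genes. The cells were RPMI-8402, an established line of T cell acute lymphoblastic leukaemia (T-ALL) that carried Cas9 and was labelled MYC_KO in every sample, controls included, and that grew in medium with tetracycline-free serum. The control group was given DMSO, the solvent, and the other was given doxycycline (DOX), which induces the MYC guide RNAs, for 72 hours, with 3 samples in each. The sources used here do not give the doxycycline dose, the guides, or whether the cells were a single clone. No sample received doxycycline without guides, and the labels do not state whether replicates came from separate cultures. The p-values therefore cover the spread among these libraries alone, possibly a technical one.

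PRC2 places methyl groups on lysine 27 of histone H3 and so keeps genes silent. EZH2 or its relative EZH1 is the enzyme, EED and SUZ12 are the core subunits without which the enzyme is inactive, and JARID2 helps to bring the complex to chromatin. DNA methylation, the other main silencing mark, is laid down by DNMT3A and DNMT3B and copied at each replication by DNMT1, which UHRF1 guides to hemimethylated sites, while TET3 oxidises methylcytosine and opens the way to its removal. In T-ALL, genes of PRC2 are recurrently lost or mutated, which is why the complex is followed in this leukaemia.

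Total counts ran from 23121255 to 26214598 per sample, and the 10 genes together took between 0.180% and 0.190% of them. MYC, the gene aimed at, stood at 407 to 422 CPM (reads relative to the library's total, with TMM scaling) in DMSO and at 431 to 459 CPM in DOX (log2 fold change 0.09, edgeR adjusted p = 0.160), so MYC RNA was not lower in the libraries labelled DOX. A gene-level count still counts reads of edited transcripts, so it checks the labels only in part. Of 15492 genes tested, 2137 were higher and 2408 lower in DOX (edgeR quasi-likelihood test, Benjamini-Hochberg adjusted p under 0.05), against 2758 and 1606 with library size alone and 2871 and 1585 with upper-quartile scaling. The T-ALL identity of the cells was visible in LCK, CD3E and LMO1, at 624 ± 29.2, 976 ± 53.2 and 265 ± 5.72 CPM in DMSO (SD, n = 3), while CD1A had 3 to 11 reads a library. Of 12 markers of other cell types, 4 passed the filter on low counts and all 4 rose, CD79A, MPO and COL1A1 among them. Their list summed to between 45.5 and 47.6 CPM in DMSO and between 58.7 and 64.6 CPM in DOX, of which COL1A1 gave 40.1 and 49.6 CPM on average. MS4A1, HBB, EPCAM and PECAM1 had no read in any library, which allows up to 0.130 CPM in the shallowest (3 counts, counting error only). The part of these markers in the results was not tested.

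TET3, SUZ12 and EED, the 3 genes of the 10 that changed by the main test, differ in the sequence before their start sites, shown for that reason (RefSeq, GRCh38.p14, 250 bases before the start, 5′ to 3′). Capitals mark CACGTG, the E-box that MYC and its partner MAX can bind, or a site of the E2F factors of the cell cycle, searched as TTTGGCGC, TTTCCCGC, TTTCGCGC and TTTGCCGC. The GC box (GGGCGG), the CCAAT box (CCAAT) and the NRF1 palindrome were searched too, all on both strands, and the GC and CCAAT boxes are left in lower case. No motif contains another.
TET3, chr2:73984660-73984909, plus strand: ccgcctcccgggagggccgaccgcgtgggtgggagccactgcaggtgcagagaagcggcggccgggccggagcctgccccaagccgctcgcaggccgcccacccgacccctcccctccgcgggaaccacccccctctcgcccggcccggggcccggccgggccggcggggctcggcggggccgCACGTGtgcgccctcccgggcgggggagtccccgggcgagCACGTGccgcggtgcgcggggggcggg
SUZ12, chr17:31936757-31937006, plus strand: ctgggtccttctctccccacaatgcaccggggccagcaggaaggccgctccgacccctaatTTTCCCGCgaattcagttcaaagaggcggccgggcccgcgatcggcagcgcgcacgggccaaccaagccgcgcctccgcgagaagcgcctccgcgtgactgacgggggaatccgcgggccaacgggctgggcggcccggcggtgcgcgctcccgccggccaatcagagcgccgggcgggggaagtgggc
EED, chr11:86244503-86244752, plus strand: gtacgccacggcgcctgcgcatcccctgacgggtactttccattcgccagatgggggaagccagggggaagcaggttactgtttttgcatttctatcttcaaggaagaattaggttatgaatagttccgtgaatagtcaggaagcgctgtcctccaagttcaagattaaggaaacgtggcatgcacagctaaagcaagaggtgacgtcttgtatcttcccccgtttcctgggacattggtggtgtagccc

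The TET3 window held 2 E-boxes, which began 67 and 27 bases before the start. One or more E-boxes stood in 6.3% of 35114 such windows of all genes, and at least 2 in 0.54%. The second TET3 start listed held none. These shares were not matched for base composition, and the TET3 window shown had 84.0% GC beside a median of 58.0% for all windows. The SUZ12 window held 1 E2F match, 189 bases before the start, as did 2.8% of all windows. The EED window held neither motif and no GC box, a box found in 42.6% of all windows, and had 1 CCAAT box, as 32.0% did. SUZ12 had 2 GC boxes and 1 CCAAT box, and TET3 3 GC boxes and no CCAAT box. No window of the 10 genes held the NRF1 site, against 1.0% of all windows. EED had 11 CpG pairs, the sites that DNA methylation uses, and the median of all windows was also 11, whereas TET3 and SUZ12 had 37 and 34. Among all 20 windows of the 10 genes, E-boxes were found also in 2 overlapping windows of DNMT3A, and E2F matches in EZH1 and in 2 windows of UHRF1. These matches describe letters, not binding.

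Within PRC2, the core subunits SUZ12 and EED fell in DOX, each by 0.24 on the log2 scale. The enzymes EZH2 and EZH1 did not pass the test. The ratios below set EZH2, but not EZH1, against these subunits. Of all 10 genes, all of which passed the filter, 3 changed (1 higher, 2 lower), where 29.3% of all genes tested changed (13.8% higher, 15.5% lower). The share is thus that of the background. The members' median log2 fold change was 0.002, beside -0.001 for all genes. In a bulk sample, fewer cells of a kind and less RNA per cell cannot be told apart.

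EZH2, the main methyltransferase of dividing cells, had 140.1, 137.8 and 140.1 CPM in DMSO and 135.7, 134.4 and 136.0 CPM in DOX (here and below in the order of replicates 1, 2 and 3). Every DOX library lay just under every DMSO library, and the spread within each group was the smallest of the 10 genes on the log2 scale (SD 0.014 and 0.009, n = 3 each). The change of -0.04 (SE 0.047, 95% interval -0.14 to 0.06) did not pass the test (edgeR adjusted p = 0.548), which draws each gene's spread towards that of other genes. The sign of the EZH2 change turned with library size alone (0.002), with upper-quartile scaling (0.006) and with correction for GC content and length (0.07). EZH1, the enzyme that prevails in resting cells, had 82.0, 79.4 and 88.7 CPM in DMSO and 88.0, 86.1 and 90.7 CPM in DOX. Its groups overlapped, and its change was 0.08 (SE 0.054, interval -0.03 to 0.19, edgeR adjusted p = 0.260).

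SUZ12, which holds the complex together, had 215, 194 and 219.5 CPM in DMSO and 161, 189 and 182 CPM in DOX. All 3 DOX libraries were below the lowest DMSO library, though DOX replicate 2 was so by only a few CPM. The fall of 0.24 (SE 0.058) passed the test (edgeR adjusted p = 0.00291), and without DOX replicate 1, the lowest library, SUZ12 fell by 0.17 (adjusted p = 0.0379). A partial copy, SUZ12P, had 26.6 ± 0.284 CPM in DMSO and 24.7 ± 0.780 CPM in DOX (SD, n = 3 each) and a change of -0.10 (edgeR adjusted p = 0.234), so reads that match both genes leave the SUZ12 count uncertain. With GC content and length corrected, as described below, SUZ12P stood at 0.15 (edgeR adjusted p = 0.0465), opposite in sign to SUZ12. EED, the subunit that reads the mark already placed, had 28.8, 25.2 and 24.1 CPM in DMSO and 21.6, 21.5 and 23.1 CPM in DOX. Its groups did not overlap either, with DMSO replicate 1 well above the rest. EED fell by 0.24 (SE 0.072, edgeR adjusted p = 0.0132), a call lost without DMSO replicate 1 (-0.16, adjusted p = 0.137) and without DOX replicate 1 (-0.22, adjusted p = 0.0521).

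JARID2 went the other way in level, from 56.8, 51.5 and 51.0 CPM in DMSO to 58.1, 57.5 and 61.0 CPM in DOX. The groups did not overlap, but DMSO replicate 1 nearly reached the DOX libraries. The change of 0.15 (SE 0.058, interval 0.03 to 0.27) just missed the threshold (edgeR adjusted p = 0.0541). JARID2 passed as higher in 3 of 14 alternatives. These were library size alone (0.19, edgeR adjusted p = 0.0183), upper-quartile scaling (0.20, adjusted p = 0.0121) and leaving out DMSO replicate 1 (0.20, adjusted p = 0.0299). Those scalings also moved the median of all genes, from -0.001 to 0.043 and 0.047. JARID2 did not pass with GC content and length corrected (0.10, edgeR adjusted p = 0.154) or by DESeq2 (0.14, DESeq2 adjusted p = 0.115).

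Among the genes of DNA methylation, TET3 rose and none of the 3 methyltransferases passed the test. TET3 had 73.8, 74.4 and 76.2 CPM in DMSO and 88.0, 88.7 and 96.02 CPM in DOX. The gap between the groups was wider than the range within either of them. TET3 rose by 0.28 (SE 0.053, edgeR adjusted p = 2.93e-04), from 74.8 ± 1.22 to 90.9 ± 4.46 CPM (SD, n = 3 each), and passed without any 1 library and under every scaling tried.

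DNMT1, the most abundant of the 10, had 597, 598 and 551 CPM in DMSO and 611, 581.5 and 570.5 CPM in DOX, with overlapping groups. Its change was 0.01 (SE 0.051, interval -0.09 to 0.12, edgeR adjusted p = 0.874). UHRF1, its guide, had 270, 262 and 249.5 CPM in DMSO and 252, 234 and 260.2 CPM in DOX, again overlapping, with a change of -0.07 (SE 0.051, interval -0.17 to 0.04, edgeR adjusted p = 0.361). DNMT3A stayed between 219 and 230.0 CPM in all 6 libraries and had a change of -0.01 (SE 0.048, interval -0.11 to 0.09, edgeR adjusted p = 0.922). DNMT3B had 196, 211.5 and 197 CPM in DMSO and 214, 208 and 213 CPM in DOX, with a change of 0.07 (SE 0.049, interval -0.03 to 0.17, edgeR adjusted p = 0.299). None of these 4 intervals reached beyond 0.17 on the log2 scale in either direction. The signs of DNMT1 and DNMT3A turned under some alternatives.

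**Figure D1:**
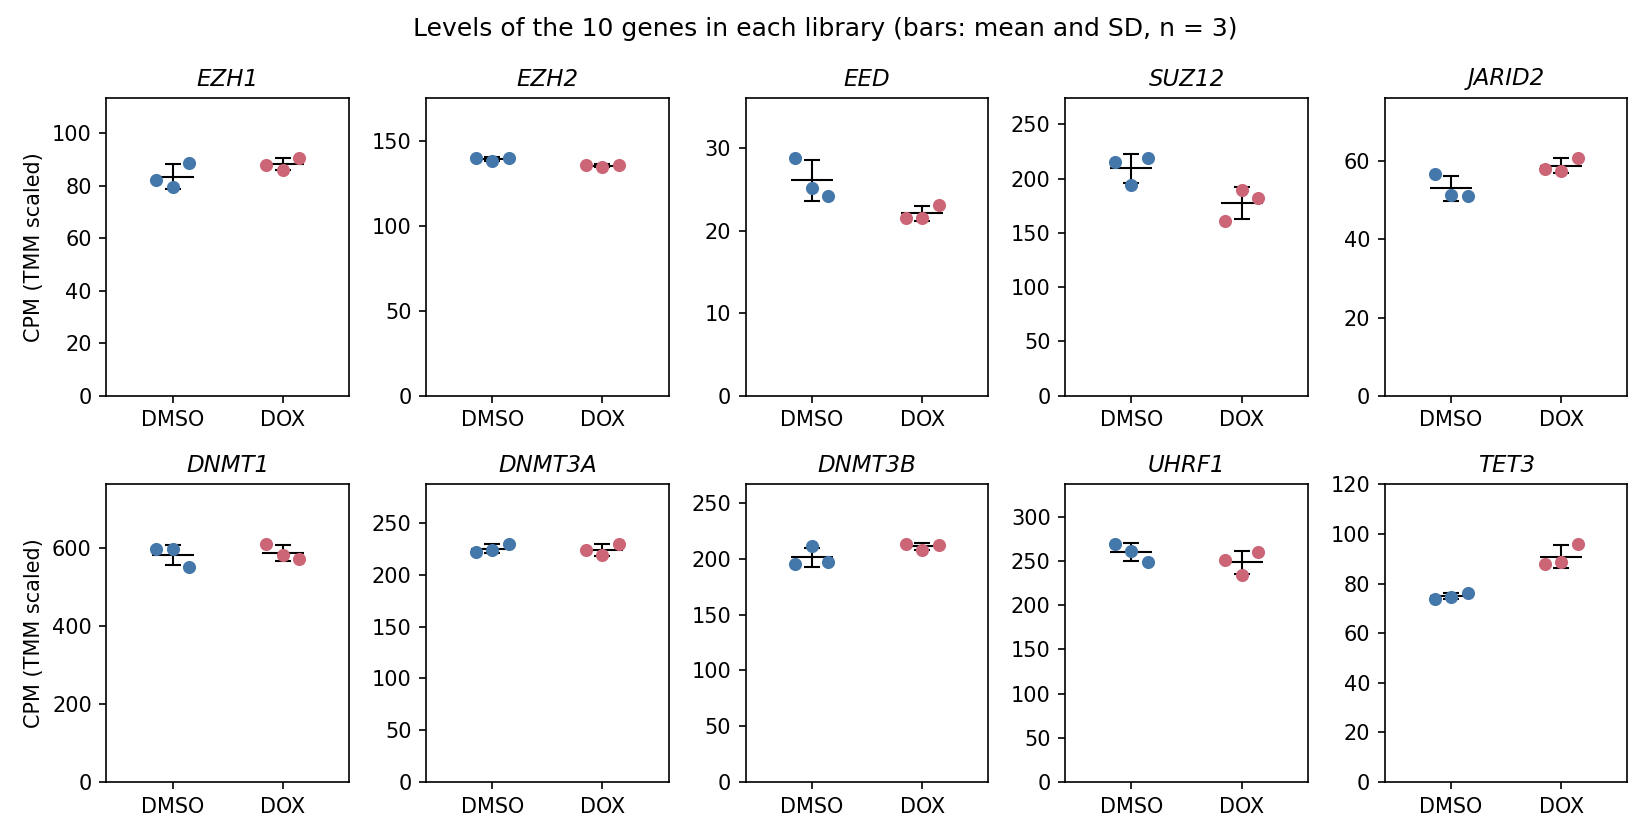
CPM with TMM scaling on axes from 0 for each of the 10 genes, with 1 point per library and the mean and SD of 3 libraries per group. SUZ12, EED and EZH2 have every DOX point below every DMSO point, TET3 and JARID2 every DOX point above, and the other 5 genes overlap.

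Groups did not overlap for 5 of the 10 genes, 2 higher and 3 lower in DOX, where 41.7% of all genes tested did not overlap (20.7% higher, 21.0% lower). In the authors' deposited table the same 3 genes pass, with log2 fold changes of 0.27 for TET3, -0.25 for SUZ12 and -0.25 for EED (DESeq2 adjusted p = 7.04e-05, 0.00113 and 0.0281). DESeq2, run on the same counts, called 25.4% of the 13767 genes to which it gave an adjusted p.

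Among genes with a mean log2 CPM above 2, fold changes followed the base composition of transcripts, and EED and SUZ12 lay at its low end. Of these genes, the 1076 of lowest GC content (median 36.9%) had a median change of -0.15 and the 1076 of highest (63.7%) one of 0.14. EED and SUZ12 had the lowest GC contents of the 10, 33.0% and 38.0%, beside a median of 48.5% for all genes tested. TET3, with 52.3% GC, lay where the trend was near 0 (0.005), but had the longest transcript, 11388 bases, and the 1076 of these genes with the longest transcripts had a median change of 0.04. The correction fitted GC content and length together, so these medians do not give its size for a single gene. With GC content and length corrected, the 3 genes no longer passed. EED then stood at -0.01 (SE 0.070, edgeR adjusted p = 0.904), SUZ12 at -0.10 (SE 0.043, adjusted p = 0.111) and TET3 at 0.11 (SE 0.043, adjusted p = 0.0667). The interval of TET3, 0.02 to 0.20, and that of SUZ12, -0.19 to -0.01, still lay on 1 side of 0, and that of EED, -0.16 to 0.13, did not.

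The correction brought out 2 other genes. DNMT3A was then lower by 0.17 (log2 fold change -0.17, SE 0.038, edgeR adjusted p = 0.00259) and UHRF1 by 0.14 (-0.14, SE 0.043, adjusted p = 0.0266), and DNMT1 stood at -0.10 (SE 0.042, adjusted p = 0.0819). That makes 2 of 10 called, where 22.0% of all genes tested were called with the correction. In both fits by edgeR 0 of 10 were called, beside 2311 of the 15155 genes that both covered. Such a correction would take out a real change too, where it tracks base composition or length, and which of the 2 sets of values is nearer the cells' own change was not tested.

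**Figure D2:**
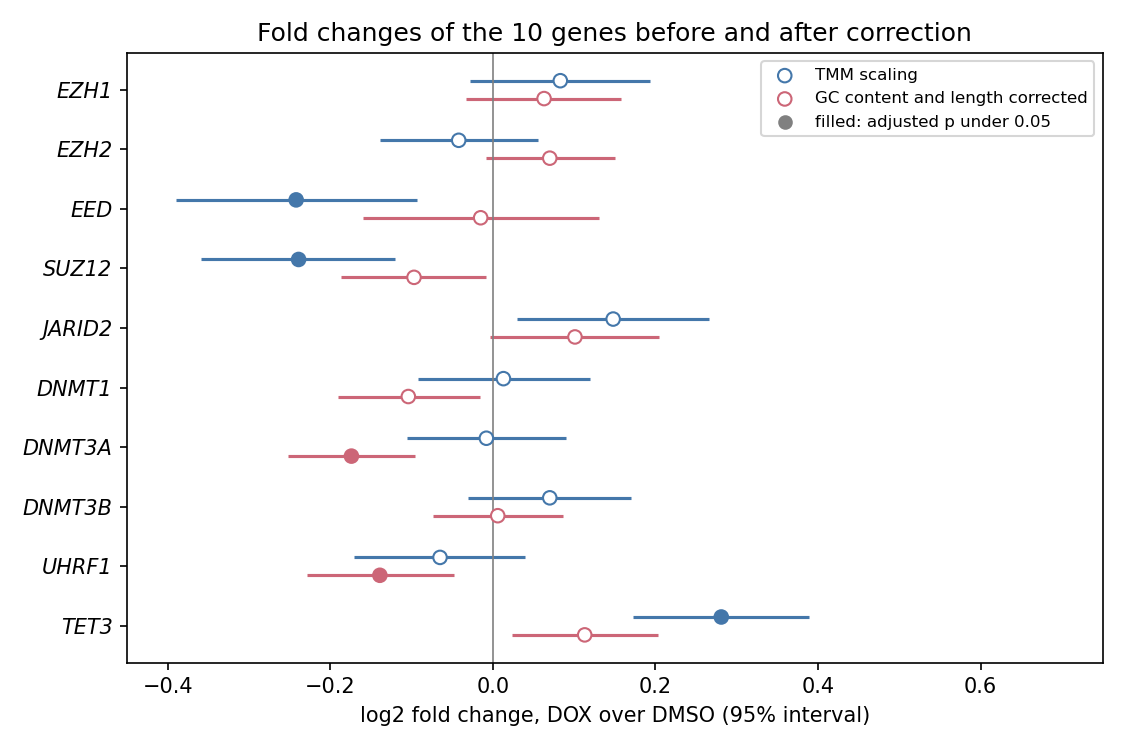
Log2 fold change of DOX over DMSO with its 95% interval for each gene, with TMM scaling (blue) and with GC content and length corrected (red), filled where the adjusted p was under 0.05. EED, SUZ12 and TET3 are filled in blue alone, and DNMT3A and UHRF1 in red alone.

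**Figure D3:**
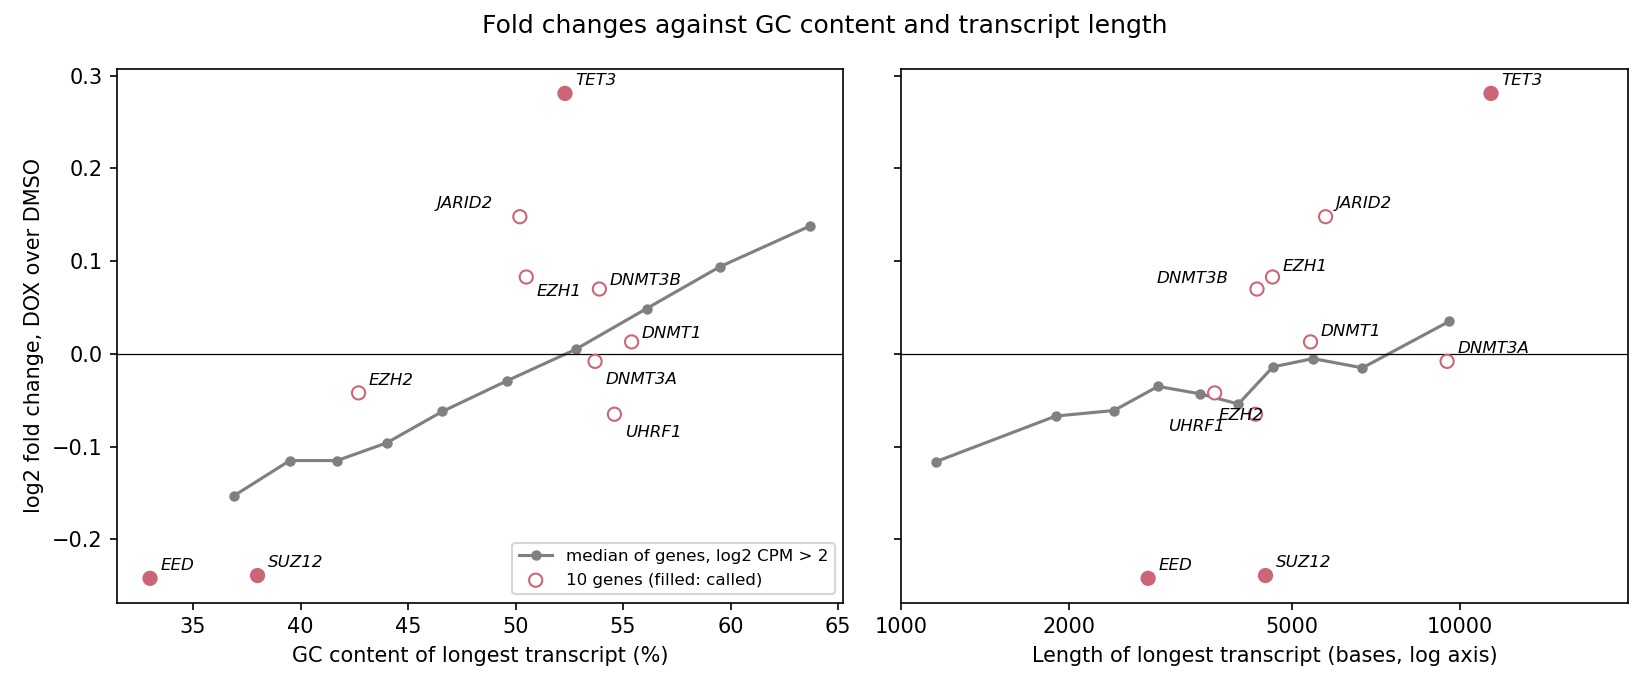
Log2 fold change against GC content (left) and length (right, log axis) of the longest transcript, with the median of genes above a mean log2 CPM of 2 in each of 10 bins as a grey line and the 10 genes as circles, filled where called. EED and SUZ12 lie at the low-GC end, below the line, and TET3 lies well above it in both panels.

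Per kilobase of exon, the copying machinery of DNA methylation was the most abundant in DMSO: DNMT1 had 59.4 ± 2.71 and UHRF1 50.6 ± 1.98 CPM per kilobase (SD, n = 3 each). DNMT3B followed at 43.5 ± 1.89 CPM per kilobase, above DNMT3A at 18.7 ± 0.342. SUZ12 and EZH2, at 32.0 ± 2.06 and 30.8 ± 0.296 CPM per kilobase, did not differ beyond their spread on this scale. EZH1 had 11.9 ± 0.688, JARID2 8.83 ± 0.533, TET3 6.10 ± 0.0991 and EED 3.71 ± 0.351 CPM per kilobase. The order rests in part on the length used: divided by the longest transcript in place of all exons, EED had 9.42, JARID2 9.23 and TET3 6.57 CPM per kilobase, and SUZ12 (46.7) stood just above DNMT3B (46.5) and well above EZH2 (38.3).

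Ratios of counts within a library do not depend on how libraries are scaled. EZH2 stood against EZH1 at 1.71, 1.73 and 1.58 in DMSO and at 1.54, 1.56 and 1.499 in DOX. Each DOX library had the lower ratio (log2 difference -0.13, 95% interval -0.25 to 0.002). EZH2 to SUZ12 was 0.651, 0.709 and 0.638 in DMSO and 0.842, 0.710 and 0.746 in DOX (log2 difference 0.20, interval -0.04 to 0.44), with DOX replicate 2 level with the highest DMSO library. EZH2 to EED went from 4.86, 5.47 and 5.80 to 6.29, 6.24 and 5.89 (0.20, interval -0.03 to 0.42), and EZH2 to JARID2 from 2.47, 2.68 and 2.74 to 2.33, 2.34 and 2.23 (-0.19, interval -0.33 to -0.05). TET3, which removes the mark, against DNMT1, which copies it, went from 0.124, 0.125 and 0.138 to 0.144, 0.152 and 0.168 (0.27, interval 0.03 to 0.50). For these 5 ratios the groups did not overlap, and the exact two-sided permutation test gave p = 0.10, the smallest that 3 against 3 allows (adjusted p = 0.16 over the 8 ratios compared).

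The other 3 ratios overlapped between groups. DNMT1 to UHRF1 differed by 0.08 (interval -0.08 to 0.24, exact permutation p = 0.40), DNMT3B to DNMT3A by 0.08 (-0.04 to 0.20, exact permutation p = 0.20) and DNMT1 to DNMT3A by 0.02 (-0.16 to 0.21, exact permutation p = 0.70). Per kilobase of exon, DNMT3B reads outnumbered those of DNMT3A 2.32 to 1 in DMSO and 2.45 to 1 in DOX. Divided by the longest transcript in place of all exons, these ratios were 1.96 to 1 and 2.07 to 1. With GC content and length corrected, the differences of EZH2 to EZH1 (0.007) and EZH2 to JARID2 (-0.03) shrank to near 0 and that of EZH2 to EED to 0.08. Those of EZH2 to SUZ12 and TET3 to DNMT1 remained at 0.17 and 0.22, and DNMT3B to DNMT3A grew to 0.18 (each exact permutation p = 0.10).

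**Figure D4:**
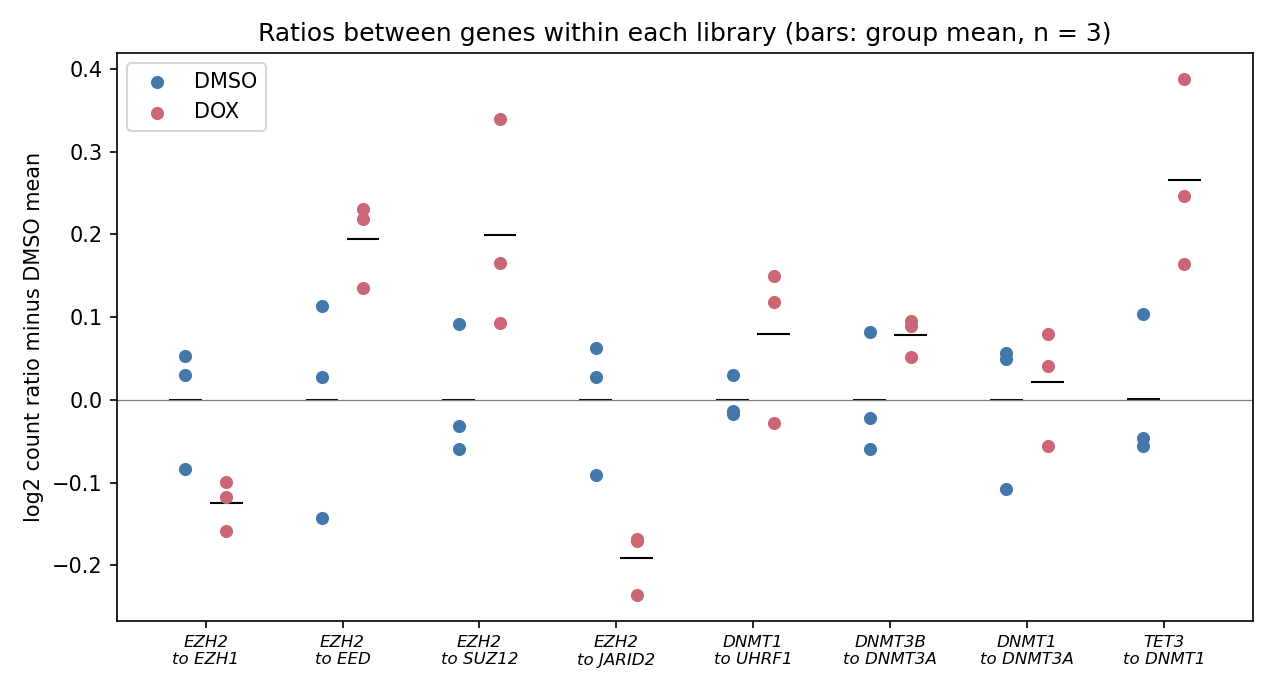
Log2 ratio of the counts of 2 genes in each library, minus the DMSO mean of that ratio, with 1 point per library and a bar at the mean of 3. DOX points lie wholly above DMSO points for EZH2 to EED, EZH2 to SUZ12 and TET3 to DNMT1, and wholly below for EZH2 to EZH1 and EZH2 to JARID2.

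Genes that work with or against the 10 were taken from 7 lists with 74 genes, of which 72 were tested. Of these, 12 rose and 18 fell, or 41.7%, beside 29.3% of all genes. The balance turned to 20 higher and 10 lower with library size alone and with upper-quartile scaling. That of all genes turned the same way, to 2758 higher and 1606 lower and to 2871 and 1585. With GC content and length corrected 3 rose and 11 fell of 71, or 19.7%, beside 22.0%. Of 8 partners of PRC2, 4 fell: the histone-binding subunits RBBP4 (by 0.14) and RBBP7 (by 0.15), AEBP2 (by 0.18) and MTF2 (by 0.14), a Polycomb-like protein that ties the complex to CpG islands. PHF1, a relative of MTF2, rose by 0.19 and C17orf96, also named EPOP, by 0.32 (edgeR adjusted p = 0.00664 and 0.00499), and the median of the list was -0.09. None of the 5 partners called and covered by the correction passed it. PHF19, the third Polycomb-like protein, was then lower (log2 fold change -0.17, edgeR adjusted p = 0.00460).

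PRC1, which reads the PRC2 mark and adds ubiquitin to histone H2A, had 4 of 23 genes higher and 2 lower, and 17 did not pass, with a median of 0.009. BCOR and BCORL1, of the variant complexes, rose by 0.19 and 0.27, PCGF2 by 0.21 and PHC1 by 0.16, while YAF2 fell by 0.35 and PCGF5 by 0.21. After the correction YAF2 remained lower (-0.24, edgeR adjusted p = 0.00403) and the other 5 did not pass. CBX6 (-0.30, edgeR adjusted p = 1.03e-04) and L3MBTL2 (-0.22, adjusted p = 0.0160) were lower with the correction alone. Of 6 genes that remove or oppose Polycomb marks, 1 rose: KDM6B, a demethylase of histone H3 lysine 27, from 121 ± 12.2 to 158 ± 3.67 CPM (SD, n = 3 each). KDM6B rose by 0.38 (edgeR adjusted p = 2.88e-05), and by 0.14 after the correction, where it did not pass (adjusted p = 0.0650). KDM6A, the other such demethylase, stood at 0.04 (SE 0.053, adjusted p = 0.629).

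On the side of DNA methylation, 1 of 7 tested partners changed: USP7, the deubiquitinase that stabilises UHRF1 and DNMT1, fell by 0.26 from 299 ± 4.90 to 249 ± 9.19 CPM (SD, n = 3 each). USP7 was lower with the correction too (-0.24, edgeR adjusted p = 2.42e-04). Of 10 genes of DNA demethylation, TDG, the glycosylase that cuts out what TET enzymes make, fell by 0.35 from 102 ± 2.51 to 80.5 ± 6.36 CPM (SD, n = 3 each), GADD45A by 0.29 and APEX1 by 0.16. NEIL1 rose by 0.44, and GADD45G by 1.97 at the lowest levels tested, 0.136 ± 0.0566 to 0.554 ± 0.0839 CPM (SD, n = 3 each). GADD45G had 5, 3 and 2 reads in DMSO and 16, 12 and 16 in DOX. It passed the filter on low counts through its DOX libraries alone, so the filter favoured a higher call in both fits. With the correction TDG (-0.19, edgeR adjusted p = 0.00866) and GADD45A (-0.19, adjusted p = 0.0489) remained lower and NEIL1 (0.29, adjusted p = 0.0332) and GADD45G (1.91, adjusted p = 0.00379) higher, and APEX1 did not pass. TET1 and TET2, the relatives of TET3, did not pass in either fit.

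Of 8 tested readers of methylated DNA, MBD2 fell by 0.26 and ZBTB33 by 0.22, while MBD6 rose by 0.14. MBD2 kept its call with the correction (-0.23, edgeR adjusted p = 0.00165). The cycle that supplies the methyl donor S-adenosylmethionine showed 6 of 10 genes lower and 1 higher, with a median of -0.16. ADK fell by 0.31, AHCY, which clears the product that inhibits methyltransferases, by 0.24, and MAT2A, which makes the donor, by 0.18 from 443 ± 20.8 to 391 ± 2.12 CPM (SD, n = 3 each). After the correction AHCY (-0.28, edgeR adjusted p = 1.01e-04) and AHCYL1 (-0.16, adjusted p = 0.00738) were lower and MAT2A did not pass (-0.09, adjusted p = 0.133). For comparison, of 26 DNA replication genes 11 fell and 3 rose, with a median of -0.14. With the correction 9 of these 26 fell and 0 rose, with a median of -0.09. Of all genes, 29.3% were called without the correction and 22.0% with it.

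**Figure D5:**
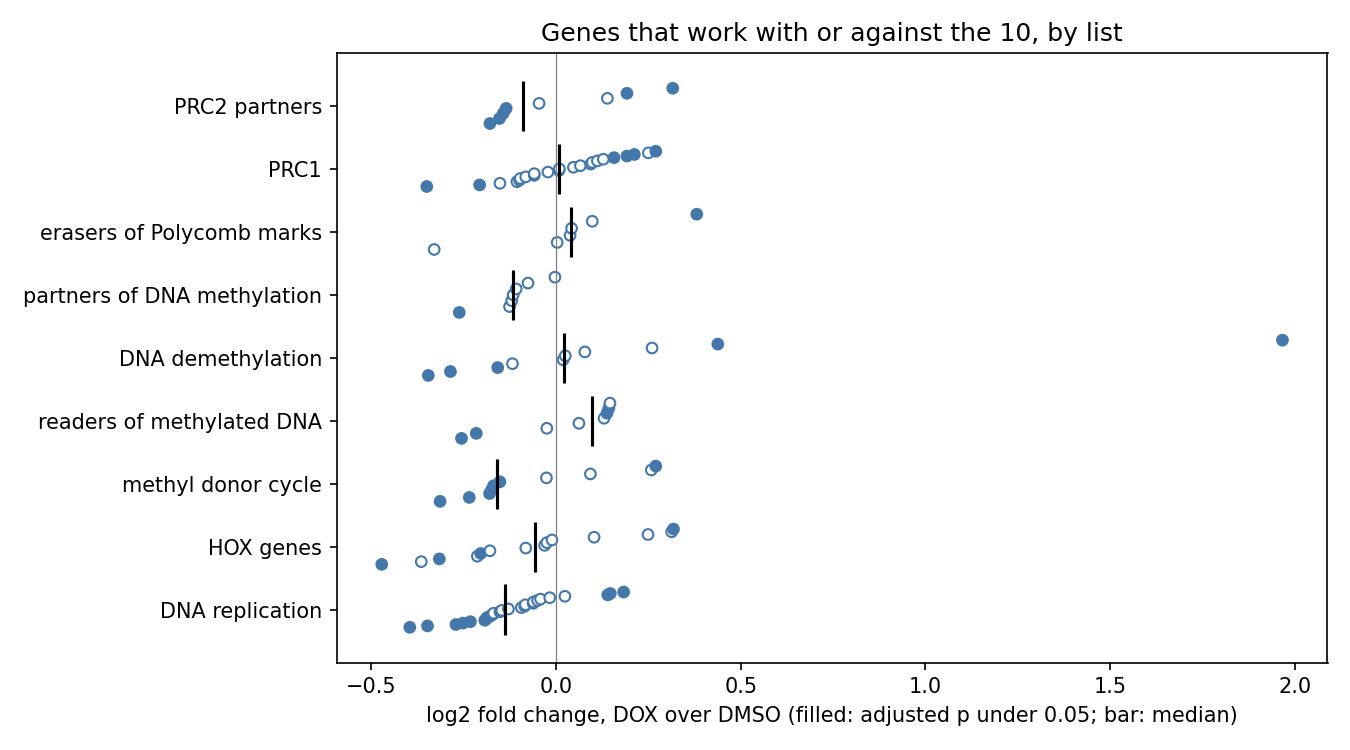
Log2 fold change of DOX over DMSO for each tested gene of the 7 related lists, the HOX genes and the DNA replication genes, filled where the adjusted p was under 0.05, with a bar at each list's median. The medians lie between -0.16 and 0.10, and GADD45G, which passed the filter through its DOX libraries alone, stands apart at 1.97.

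Of 39 HOX genes, textbook targets of Polycomb, 10 had no read in any library and 14 passed the filter. Of those 14, 1 rose and 3 fell, a share near the 29.3% of all genes. HOXB3 rose from 49.5 ± 0.743 to 61.7 ± 3.51 CPM (SD, n = 3 each), by 0.32 (edgeR adjusted p = 1.83e-04), and by 0.29 with the correction. HOXA5, HOXA6 and HOXB7 fell by 0.32, 0.47 and 0.20, and none of the 3 passed with the correction. Of 18 germline genes of the kind that DNA methylation keeps off, 11 had no read in any library. Their summed level was 0.785 to 1.15 CPM in DMSO and 0.835 to 1.22 CPM in DOX, with overlapping groups. BRDT, a testis bromodomain gene too low to be tested and named after its values were seen, had 1, 0 and 1 reads in DMSO and 5, 5 and 8 in DOX, without overlap. SYCP3, the one tested, had 11, 10 and 13 reads in DMSO and 9, 14 and 6 in DOX and did not pass.

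Among 9659 genes above a floor of 3 in mean log2 CPM, those whose centred log2 CPM over the 6 libraries came closest to EZH2 were CNOT1, TEX2 and TRAT1, with root mean square differences of 0.0066 to 0.0094. Their own changes were -0.04, -0.04 and -0.04 on the log2 scale. Among those closest to TET3 were TENM4 and SLC35E2B, at 0.0179 and 0.0236, and these rose by 0.28 and 0.26. Since the genes were picked by these same libraries, changes near those of EZH2 and TET3 follow from the choice and are no separate result.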

How the data were processed

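RNA from 3 DMSO and 3 DOX samples of RPMI-8402 cells was sequenced from strand-specific libraries read from both ends, per the labels' protocols. The authors deposited raw read counts per gene, and a DESeq2 results table. Per the file headers, the deposited table gives p-values and adjusted p-values, a Wald score, log2 fold changes with standard errors, and the mean normalized signal over all 6 samples. STAR 2.5.2a, featureCounts, DESeq2 1.12.4 and hg19 are named per the submitters' processing notes, without roles. The annotation and strand setting are not given in the sources used here. Reads of overlapping genes and copies cannot be told apart. By GENCODE 29 exons, DNMT1 shares 83 bases with S1PR2 (0.597 CPM in DMSO) and EED 66 bases with the microRNA gene MIR6755.

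Counts were filtered with filterByExpr (15492 genes, at least 99.88% of each library's counts), scaled with TMM and tested by quasi-likelihood in edgeR 4.0.16 under R 4.3.3. Treatment was the model's one term, with Benjamini-Hochberg adjustment over all genes tested. SE is the size of the log2 fold change over the square root of F, and 95% intervals of fold changes follow from it. The intervals of the 8 ratios are instead t intervals from the SD pooled over both groups. They can thus leave out 0 where the permutation test, with its smallest p of 0.10, does not pass. The test was checked on simulated data. The member with fewest reads, EED, had 553 to 727 per library. For the correction, splines of GC content and log2 length of the longest GENCODE 29 transcript (5 degrees of freedom each) were fitted per library to log2 CPM (prior count 2) over genes with a mean log2 CPM above 2, and used as offsets for 15155 genes, or 97.8%. Of these genes, 119, UHRF1 among them, were matched by symbol and the rest by identifier. GENCODE 29 and RefSeq are on GRCh38, not hg19, so lengths are approximate for these counts and coordinates serve only to place the sequences. Where a symbol had several identifiers, the one with most counts was used.

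The 10 genes and the lists were chosen with earlier results of these data known. The text names MYC, the 10 genes, up to 4 called genes of smallest p per list, and the 3 closest profiles to EZH2 and to the member of largest change. RBBP4, MTF2, PHC1, PCGF5, CBX6, L3MBTL2, APEX1, PHF19, AHCYL1, KDM6A, TET1, TET2, LCK, CD3E, CD1A and LMO1 were named after their values were seen. A few genes named by the rule are not reported here. Alternatives were other scalings, DESeq2 1.42.0, no filter, leaving out libraries, the replicate number as a term, and the correction.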

Additional observations from a re-analysis of the deposited data

How the results depend on the processing

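Of the calls of the 10 genes, those of TET3 and SUZ12 held in 12 of 14 alternatives each and that of EED in 10, all with the same sign, and those lost are given above. Members called numbered 2 higher with library size alone and with upper-quartile scaling, 0 higher with GC content and length corrected (also with the replicate block), and 1 to 2 higher and 1 to 2 lower when 1 library was left out. Related genes called were 20 higher and 10 lower with library size alone and with upper-quartile scaling, 3 higher and 11 lower with the correction, 3 and 10 with the correction and block together, and 11 to 18 lower when 1 library was left out. All genes called lower numbered 1585 with upper-quartile scaling, and those called higher 1348 by DESeq2. With the correction, differences of log2 ratio were 0.007 for EZH2 to EZH1, 0.08 for EZH2 to EED, -0.033 for EZH2 to JARID2 and 0.18 for DNMT3B to DNMT3A. The cause was not tested.

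Same-numbered samples did not deviate together (correlations of deviations from group means -0.04, -0.05 and 0.01 over genes), and no sample correlated best with its own number. With the replicate block, 1 member was called higher and 2 lower, and 2006 genes higher and 2200 lower over all.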
